A study of Mus musculus with 22 samples.

Results

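7 genes that bear on how a cell meets a microtubule drug were followed: 3 for proteins that act on microtubules (Stmn1, Map4 and Mapre1, listed as STMN1, MAP4 and MAPRE1) and 4 for ATP-driven exporters of drugs (Abcb1a, Abcb1b, Abcc1 and Abcg2, listed as ABCB1A, ABCB1B, ABCC1 and ABCG2). They were taken by symbol, and all 7 of them were found among the 24353 symbols of each expression table. RNA had been measured in 22 bulk libraries from tumours of EMT6, a mouse mammary carcinoma line, grown in wild-type BALB/c mice. Each mouse, aged 5 to 6 weeks, had received 200000 tumour cells in both inguinal fat pads, and the dissociated tumours were split with anti-CD45 beads into a CD45-negative fraction, enriched for tumour cells, and a CD45-positive fraction, enriched for leukocytes. The 5 groups were vehicle, JQ1, JQ1 with anti-PD-L1, JQ1 with paclitaxel, and all 3 drugs. JQ1, an inhibitor of BET bromodomain proteins, was given by mouth each day at 50 mg/kg, and the anti-PD-L1 antibody (clone 10F.9G2) and paclitaxel both at 10 mg/kg, injected 2 times a week. The CD45-negative groups held 2, 2, 2, 3 and 3 libraries in that order, and the CD45-positive groups 2 each. All 4 treated groups received JQ1, so neither paclitaxel nor the antibody was seen without it. The sample names of 3 groups (JQ1, JQ1 with anti-PD-L1, and vehicle) carry 1 mouse code each, with a final R or L, so these pairs appear to be tumours of the same mouse, and their spread does not cover differences between mice.

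Microtubules grow and shrink by adding and losing tubulin, and paclitaxel holds them in the polymer. Stathmin, the product of Stmn1, binds free tubulin and favours shrinkage, and its gene is most active in dividing cells; Map4 binds along the polymer and stabilises it, and Mapre1 encodes EB1, which rides on growing plus ends. Paclitaxel is a substrate of P-glycoprotein, which mice make from the neighbouring genes Abcb1a and Abcb1b, whereas Abcc1 (MRP1) and Abcg2 (BCRP) export other sets of drugs and conjugates.

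The 2 P-glycoprotein genes are shown by their promoters. Their transcripts are related (87.1% identical where aligned), and their mean levels stood in opposite order in the fractions. Whether the promoters bear on these levels was not tested. The sequences are the 250 bases before an annotated start of each gene in RefSeq, with matches to 4 motifs in capitals. Both lie on the plus strand of build GRCm38.p6 (chr5:8566841-8567090 for Abcb1a and chr5:8797897-8798146 for Abcb1b). The motifs, searched on both strands, were CCAAT, the GC box GGGCGG, the E-box CACGTG and the AP-1 site TGANTCA.
Abcb1a: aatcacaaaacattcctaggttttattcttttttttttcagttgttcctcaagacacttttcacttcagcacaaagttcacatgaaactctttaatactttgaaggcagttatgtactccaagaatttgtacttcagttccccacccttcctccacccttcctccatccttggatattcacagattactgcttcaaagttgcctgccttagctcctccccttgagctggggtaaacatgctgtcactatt
Abcb1b: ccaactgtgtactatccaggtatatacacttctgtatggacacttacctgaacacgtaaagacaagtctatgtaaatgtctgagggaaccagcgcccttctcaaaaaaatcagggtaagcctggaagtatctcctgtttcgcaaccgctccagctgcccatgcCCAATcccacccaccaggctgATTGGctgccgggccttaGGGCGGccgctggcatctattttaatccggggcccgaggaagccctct
The Abcb1a stretch held none of the 4 motifs. That of Abcb1b held 2 CCAAT boxes, starting 87 bases (CCAAT) and 66 bases (ATTGG, the other strand) before the annotated start, and 1 GC box 48 bases before it. Whether the annotated starts are those used in these tumours was not tested, so other promoters of either gene are not covered. Among 32851 promoters of the same length, 33.8% held a CCAAT box, 32.7% a GC box, 6.02% the E-box and 6.75% the AP-1 site, so each motif of Abcb1b is a common one. Over the transcripts, Abcb1a and Abcb1b were 87.1% identical in 4029 aligned columns, and 15.5% of the 50-base windows of Abcb1a and 18.0% of those of Abcb1b also occur in the other gene. Reads in these windows could be split between them. The Stmn1 transcript shares 36.5% of its 50-base windows with other genes, mostly with the pseudogene Gm11223 (34.7%), so part of its reads could be assigned elsewhere or dropped. Map4, Abcc1 and Abcg2 shared none and Mapre1 1.59%.

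The values were taken as FPKM, fragments scaled to transcript length and library size. This unit was inferred, and levels are set beside each other between genes on that assumption. Tests used log2(FPKM + 1) with limma, 1 fit for each fraction over its 5 groups, and Benjamini-Hochberg adjustment over all genes that reached 1 FPKM in 2 or more libraries (10780 CD45-negative and 10340 CD45-positive genes). A fold change below is a difference of group means on that log2 scale ± its standard error, which understates changes of genes near 0, and a gene was called at an adjusted p under 0.05. All 7 genes passed the filter in both fractions, Abcb1b in the CD45-negative fraction only through 2 libraries. Read totals were not in the tables. Relative depths read from the steps between low values ran from 0.547 to 1.79 in the CD45-negative and from 0.629 to 1.71 in the CD45-positive libraries. Ptprc, which encodes CD45, was higher in the CD45-positive fraction of all 10 tumours with both libraries (median ratio 14.8, range 5.39 to 31.1). The CD45-negative libraries still held leukocyte RNA (12 pan-leukocyte genes summed to 232.9 to 724.9 FPKM, against 2969 to 4878 in the CD45-positive ones). In these bulk fractions fewer cells of a type and less RNA per cell cannot be told apart.

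Stmn1 was by far the most abundant of the 7 transcripts in both fractions. Its mean level of 57.0 FPKM in the CD45-negative libraries lay at the 90.3 percentile of the tested genes, and its 60.8 FPKM in the CD45-positive ones at the 92.1 percentile. Map4 (20.0 ± 2.38 FPKM, SD over 12 libraries), Mapre1 (18.9 ± 2.62) and Abcc1 (15.7 ± 3.19) followed in the CD45-negative fraction, and their spreads overlap. Abcb1a (1.64 ± 1.34), Abcg2 (1.51 ± 0.378) and Abcb1b (0.508 ± 0.370) were near the floor of the data. Among CD45-positive libraries the order was Stmn1, Mapre1 (14.3 ± 1.28, n = 10), Map4 (9.82 ± 1.88), Abcc1 (8.73 ± 1.92), Abcb1b (3.93 ± 0.880), Abcg2 (2.15 ± 0.630) and Abcb1a (0.799 ± 0.480). The 2 P-glycoprotein genes thus took opposite places in these means over all groups. By group, Abcb1b was the higher of the pair in all 5 CD45-positive groups, and Abcb1a in 4 of the 5 CD45-negative ones, the exception being JQ1 (0.373 FPKM of Abcb1a and 0.634 of Abcb1b). The CD45-negative mean of Abcb1a rests on the 3-drug group (3.68 FPKM), and in the other 3 treated groups Abcg2 was higher than Abcb1a.

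**Figure D1:**
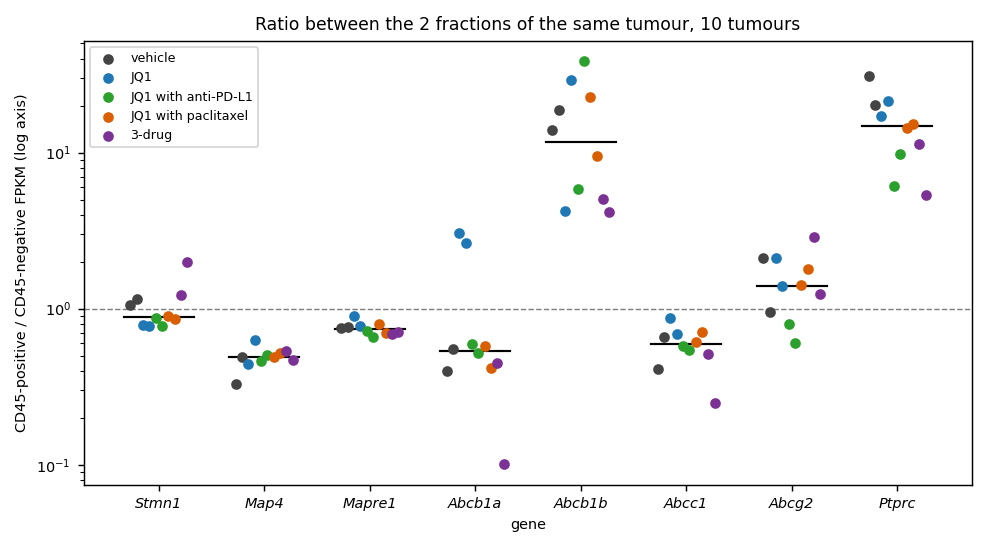
Ratio of CD45-positive to CD45-negative FPKM in each of the 10 tumours with both libraries, on a log axis, with Ptprc as the check of the sort; colours mark the treatment and black lines the medians. Abcb1b lies above 1 in all 10 tumours, and Map4, Mapre1 and Abcc1 lie below 1 in all 10.

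Set against the CD45-negative fraction of the same tumour, Abcb1b was higher in the CD45-positive fraction of 10 of 10 tumours. The median ratio was 11.8 (4.15 to 38.7). Its size is uncertain, since the CD45-negative values of Abcb1b lay near the floor, at 0.0759 to 1.11 FPKM. Map4 (median 0.492), Mapre1 (0.739) and Abcc1 (0.593) were lower in the CD45-positive fraction in all 10 tumours. Stmn1 was nearly even (median 0.882), with 4 of 10 tumours higher in the CD45-positive fraction, namely the 2 vehicle and the 2 3-drug tumours. Abcg2 was higher in 7 tumours (median 1.40). Abcb1a was lower in 8 tumours and higher in the 2 tumours given JQ1 alone (3.06 and 2.63). The 2 tables were made separately, so these ratios are descriptions without a test.

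Over the comparisons 8 calls were made, all on Stmn1, Abcb1a and Abcc1, and none on Map4, Mapre1, Abcb1b or Abcg2. In the CD45-negative fraction 1 of 7 passed in JQ1 against vehicle (Abcb1a lower; 14.8% of all tested genes passed), 1 in JQ1 with paclitaxel against vehicle (Stmn1 lower; 17.6% of all), 0 in JQ1 with anti-PD-L1 against vehicle (0.25% of all) and 0 in the 3-drug group against vehicle (1.63% of all). Adding anti-PD-L1 to JQ1, the mean of both groups with the antibody against the mean of both JQ1 groups without it, gave 2 of 7 (Abcb1a and Abcc1 higher; 25% of all). Adding paclitaxel, defined likewise, gave 1 (Abcb1a higher; 3.56% of all), and the interaction of the 2 additions gave 0 (0.00928% of all). In the CD45-positive fraction 1 of 7 passed in JQ1 against vehicle (1.04% of all), 1 in JQ1 with paclitaxel against vehicle (4.84% of all) and 1 on adding anti-PD-L1 (0.832% of all), each time Stmn1. There 0 of 7 passed in JQ1 with anti-PD-L1 against vehicle (0.029% of all), the 3-drug group against vehicle (0.135% of all), on adding paclitaxel (0.0387% of all) and in the interaction (0% of all). The shares of all genes differ widely between comparisons, so a call in one and none in another does not show that the effects differ. Comparisons against vehicle share the same vehicle libraries. Where libraries of a group are said below to lie above, below or apart from others, this describes their values. The share of all genes with such an order was not computed, and between groups of 2 or 3 libraries it arises readily.

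**Figure D2:**
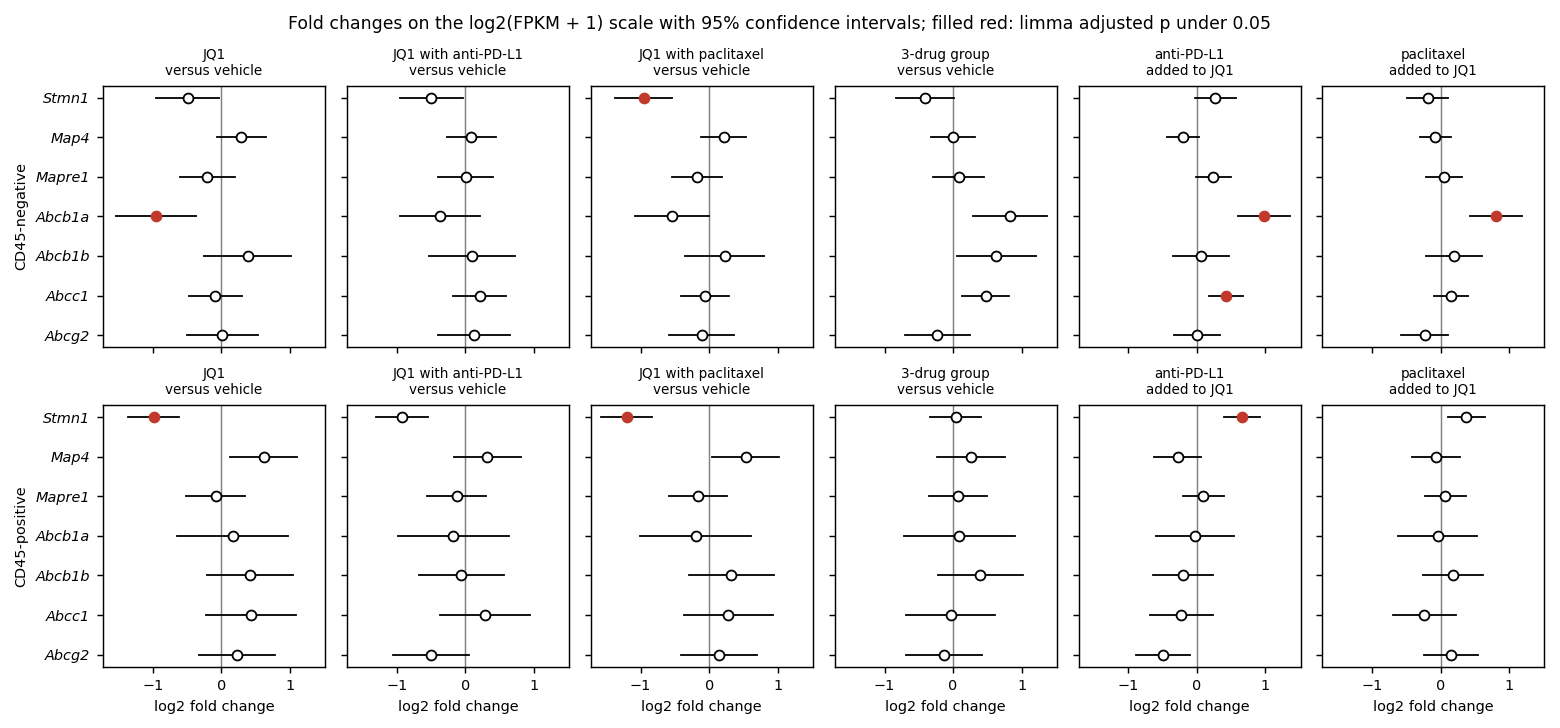
Fold changes of the 7 genes on the log2(FPKM + 1) scale (x axis) with 95% confidence intervals, in 6 comparisons (columns) and both fractions (rows); filled red points have a limma adjusted p under 0.05. Stmn1 lies at −0.96 in the CD45-negative and −1.20 in the CD45-positive fraction of JQ1 with paclitaxel, and Abcb1a at 0.98 where anti-PD-L1 was added.

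In CD45-negative cells Stmn1 was highest under vehicle, lower under JQ1, and lowest under JQ1 with paclitaxel. The vehicle libraries held 83.4 and 74.6 FPKM, the JQ1 libraries 54.2 and 57.6, and the JQ1 with anti-PD-L1 libraries 55.3 and 56.1. The JQ1 with paclitaxel libraries held 45.2, 35.9 and 39.9 FPKM, and the 3-drug libraries 75.7, 43.7 and 61.9. Each library of the first 3 treated groups lay below both vehicle libraries, while the 3-drug group spanned from the range of JQ1 with paclitaxel to that of vehicle. The mean of JQ1 with paclitaxel was 0.511 of vehicle, a fold change of −0.96 ± 0.19 (limma adjusted p = 0.0063). The differences in JQ1 (−0.49 ± 0.21, adjusted p = 0.138), JQ1 with anti-PD-L1 (−0.49 ± 0.21, adjusted p = 0.314) and the 3-drug group (−0.41 ± 0.19, adjusted p = 0.262) did not pass. Neither did the antibody's addition (0.27 ± 0.14, adjusted p = 0.168), which had an adjusted p of 0.027 without 3-drug replicate 2, the library at 43.7 FPKM. The called fall was 0.0578 in adjusted p without vehicle replicate 1 (fold change −0.88) and 0.108 with 1 value for each mouse code (fold change −0.96).

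In CD45-positive cells Stmn1 split the libraries into a high and a low set. Vehicle held 88.5 and 86.5 FPKM and the 3-drug group 92.0 and 87.5. JQ1 held 42.3 and 44.8 FPKM, JQ1 with anti-PD-L1 47.9 and 43.4, and JQ1 with paclitaxel 40.6 and 34.5. No library lay between 47.9 and 86.5 FPKM. The means of JQ1 and of JQ1 with paclitaxel were 0.498 and 0.429 of vehicle, fold changes of −0.99 ± 0.17 (adjusted p = 0.0336) and −1.20 ± 0.17 (adjusted p = 0.00805). JQ1 with anti-PD-L1, at 0.522 of vehicle, had a fold change of −0.93 ± 0.17 that did not pass (adjusted p = 0.183). The 3-drug group differed from vehicle by 0.04 ± 0.17 (95% interval −0.34 to 0.41, adjusted p = 0.958).

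Among the JQ1-treated CD45-positive groups, adding anti-PD-L1 raised Stmn1 by 0.65 ± 0.12 (adjusted p = 0.0483), a mean of both backgrounds. With paclitaxel the group means were 37.5 FPKM without and 89.8 FPKM with the antibody, and without paclitaxel they were 43.5 and 45.6 FPKM. The interaction itself was 1.18 ± 0.23 (95% interval 0.64 to 1.71) and did not pass (adjusted p = 0.212), in a comparison where 0 of all tested genes passed and 1070 had an unadjusted p under 0.05. Adding paclitaxel gave 0.37 ± 0.12 (adjusted p = 0.362). These calls stand close to the threshold: that for the antibody held in 1 of 17 alternative settings (adjusted p 0.0417 to 0.518), that for JQ1 in 8 of 17 (0.03 to 0.879) and that for JQ1 with paclitaxel in 12 of 17 (0.00782 to 0.343). The fold changes kept their sign in all 17 settings, at 0.55 to 0.71, −1.03 to −0.91 and −1.32 to −1.02 in the same order. The JQ1 call was lost without either vehicle library (adjusted p 0.221 and 0.101 for replicates 1 and 2), either JQ1 library (0.135 and 0.07) or either JQ1 with anti-PD-L1 library (0.0814 and 0.0812). The JQ1 with paclitaxel call was lost without vehicle replicate 1 or 2 (0.0686 and 0.0544) and without JQ1 with paclitaxel replicate 2 (0.0668). The antibody call was lost without any single CD45-positive library (0.073 to 0.205).

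**Figure D3:**
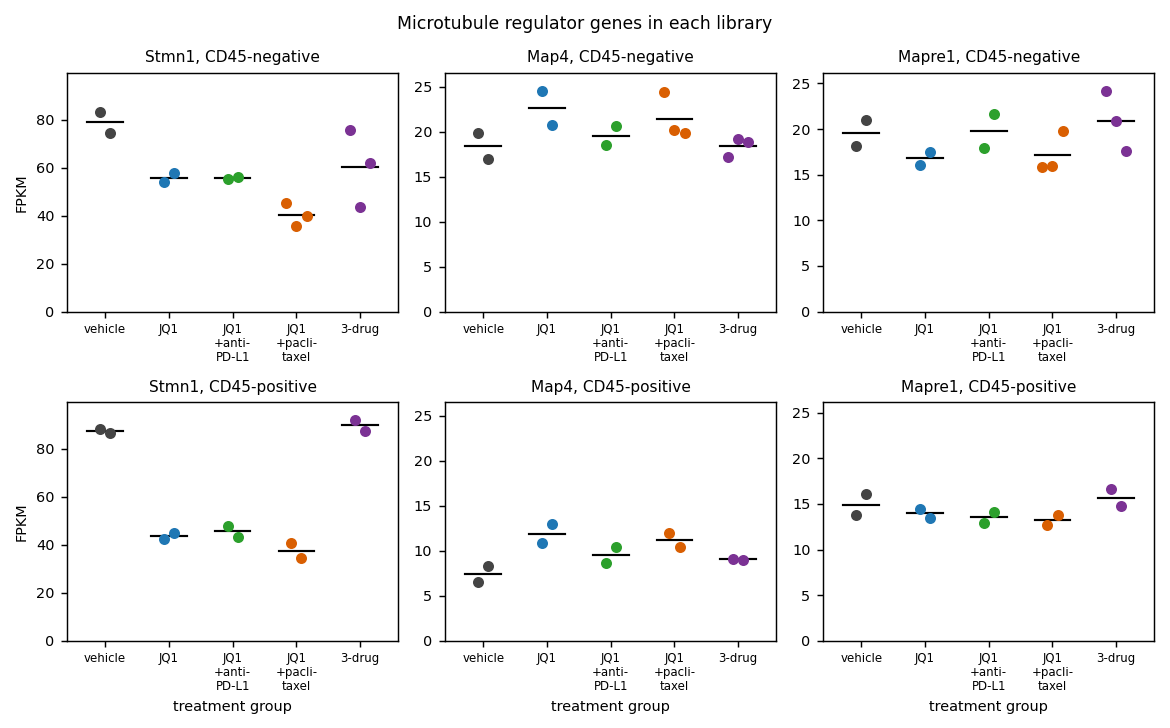
FPKM of Stmn1, Map4 and Mapre1 (y axis) in each library of the 5 treatment groups (x axis), CD45-negative above and CD45-positive below; points are libraries and lines group means. In the CD45-positive fraction the vehicle and 3-drug libraries hold 86.5 to 92.0 FPKM of Stmn1 and the other 6 libraries 34.5 to 47.9.

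Proliferation genes were lower in some, but not all, of the groups with lower Stmn1. The summed FPKM of 23 such genes was 873.0 and 952.6 in the CD45-negative vehicle libraries, 718.9 and 914.3 under JQ1, 926.0 and 878.0 under JQ1 with anti-PD-L1, 592.5, 591.0 and 621.9 under JQ1 with paclitaxel, and 868.1, 595.1 and 830.0 under 3 drugs. The 3-drug library with the lowest Stmn1 also had the lowest sum of its group. Under JQ1 with anti-PD-L1, where Stmn1 lay below vehicle, both sums were within the vehicle range and 0 of the 23 genes passed (median fold change −0.05). In JQ1 with paclitaxel against vehicle 16 of the 23 fell and 0 rose (median fold change −0.82, against −0.07 over all tested genes), among them the mitotic genes Plk1 (−1.78 ± 0.22, adjusted p = 0.000332) and Ccnb2 (−1.61 ± 0.23, adjusted p = 0.000842). CD45-positive sums were 658.3 and 685.9 under vehicle, 477.8 and 531.8 under JQ1, 520.6 and 490.5 under JQ1 with anti-PD-L1, 464.5 and 433.4 under JQ1 with paclitaxel, and 689.6 and 697.6 under 3 drugs. The same 4 libraries that were high in Stmn1 had the 4 highest sums. Gene by gene the CD45-positive 3-drug group lay below vehicle, with a median of −0.20 over the 23 and 0 called (0.0093 over all tested genes). In that fraction 9 of 23 fell in JQ1 with paclitaxel and 1 of 23 in JQ1 (medians −1.14 and −0.61, against −0.09 and −0.0041 over all tested genes). The part of proliferation in the Stmn1 values was not tested. In JQ1 with paclitaxel the CD45-positive fraction also carried more RNA of non-leukocytes: 11 of 11 tested endothelial and 5 of 7 tested pericyte markers rose. Endothelial markers summed to 96.2 and 124.4 FPKM there, 7.02 and 11.5 under vehicle and 30.1 and 36.5 under 3 drugs, with no marker of the list at 0. In JQ1 alone, at 43.0 and 43.3 FPKM, 4 of the 11 endothelial markers rose, and where the antibody was added, with the called rise of Stmn1, 5 of the 11 fell. Ccr2, of the macrophage and monocyte list, was called in the direction of Stmn1 in each CD45-positive comparison that called Stmn1. Its fold changes were −3.77 in JQ1, −4.68 in JQ1 with paclitaxel and 2.23 on adding the antibody. In JQ1 and on adding the antibody it was the 1 called of 13 tested markers. The sums of this list did not follow Stmn1. They were 14700 to 15310 FPKM under vehicle and 12940 to 13410 under JQ1. With anti-PD-L1 they were 19220 to 20210, with paclitaxel 15670 to 20510, and under 3 drugs 15300 to 18990. In CD45-positive JQ1 with paclitaxel 2 of 12 pan-leukocyte, 2 of 13 macrophage and monocyte (Ccr2 and Fcgr1) and 1 of 7 neutrophil markers fell. There 2 of 6 fibroblast markers rose. Erythroid markers set the CD45-negative vehicle libraries apart (332.0 and 109.8 FPKM, against 0.707 to 67.4 in the treated ones). The part of these markers in the Stmn1 values was not tested.

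**Figure D4:**
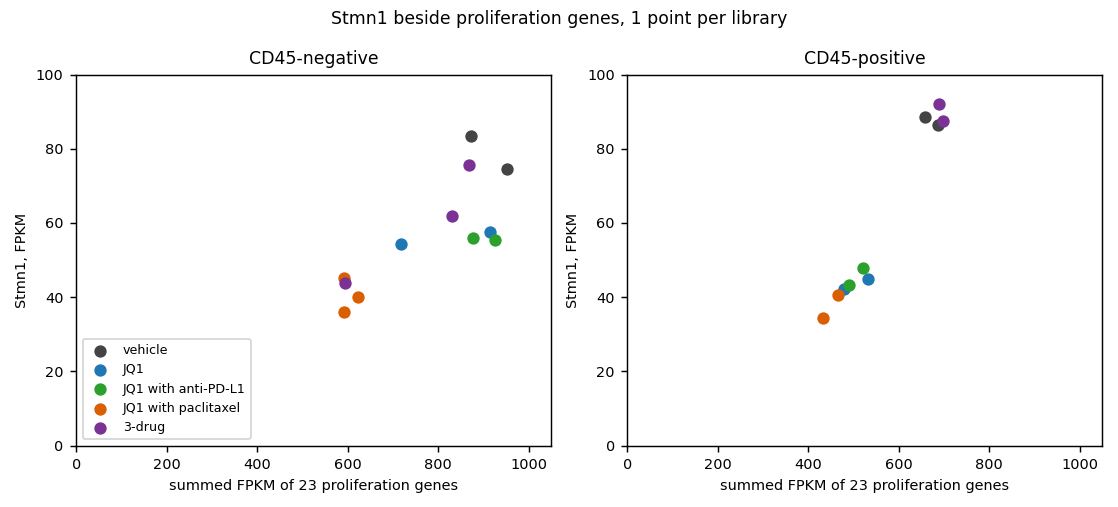
Stmn1 FPKM (y axis) against the summed FPKM of 23 proliferation genes (x axis), 1 point for each library, coloured by treatment. In both fractions the libraries of JQ1 with paclitaxel lie at the low end of both axes (35.9 to 45.2 FPKM of Stmn1 in the CD45-negative, 34.5 and 40.6 in the CD45-positive fraction).

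Neither microtubule-binding member was called in any comparison. In CD45-negative cells Map4 held 19.8 and 16.9 FPKM under vehicle, 24.5 and 20.7 under JQ1, 18.5 and 20.6 under JQ1 with anti-PD-L1, 24.4, 20.1 and 19.8 under JQ1 with paclitaxel and 17.1, 19.1 and 18.8 under 3 drugs. In CD45-positive cells it held 6.53 and 8.36 FPKM under vehicle and more in every treated library: 10.8 and 13.0 under JQ1, 8.59 and 10.4 with anti-PD-L1, 11.9 and 10.4 with paclitaxel and 9.13 and 8.99 under 3 drugs. The closest treated and vehicle libraries stood at 8.59 and 8.36 FPKM, and the same 2 vehicle libraries, of 1 mouse code, served every group. Fold changes of 0.61 ± 0.22 for JQ1 (limma adjusted p = 0.17) and 0.53 ± 0.22 for JQ1 with paclitaxel (adjusted p = 0.2) did not pass. Where Stmn1, the destabiliser, fell in JQ1 with paclitaxel, Map4, the stabiliser, had 0.21 ± 0.15 in the CD45-negative fraction (95% interval −0.12 to 0.54, adjusted p = 0.362).

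Mapre1 was the steadiest of the 7 genes in the CD45-positive fraction, with a coefficient of variation of 8.97% over all 10 libraries (12.7 to 16.6 FPKM). In the CD45-negative fraction it ran from 15.9 to 24.2 FPKM, with 18.2 and 21.0 under vehicle, 16.1 and 17.5 under JQ1, 17.9 and 21.6 with anti-PD-L1, 15.9, 15.9 and 19.8 with paclitaxel and 24.2, 20.8 and 17.6 under 3 drugs. The JQ1 libraries lay below vehicle and every other group overlapped it. The widest fold change, on adding anti-PD-L1, was 0.24 ± 0.12 (adjusted p = 0.162).

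The other microtubule genes are given by list, beside the share of all tested genes. Of the stathmin family only Stmn1 passed the filter (1 of 4 in either fraction). Tested in CD45-negative cells were 8 of 15 listed stabilisers, 16 of 17 plus-end proteins, 9 of 12 depolymerases and severing enzymes, and 11 of 14 kinases of stathmin and related proteins. In JQ1 against vehicle, where 14.8% of all tested genes passed, 1 of the 8 stabilisers fell (Map6, which makes microtubules stable in the cold, −1.10 ± 0.22, adjusted p = 0.0069) and 1 of the 16 plus-end proteins (Clip4, −2.44 ± 0.49). There 2 of the 9 depolymerases and severing enzymes rose (Fignl1 0.76 ± 0.21 and Spast, the severing enzyme spastin, 0.65 ± 0.20), and so did 2 of the 11 kinases (Uhmk1, which phosphorylates stathmin, 0.93 ± 0.21, and Mark2, which phosphorylates microtubule-associated proteins, 0.65 ± 0.16). The 4 list medians, in the order named, were −0.10, −0.13, 0.07 and 0.22, beside −0.05 over all tested genes. In JQ1 with paclitaxel against vehicle (17.6% of all) 2 of the stabilisers fell (Map6, −1.18 ± 0.20, adjusted p = 0.0024, and Map1b, −0.75 ± 0.20, adjusted p = 0.0233). Of the plus-end proteins Clip4 (−1.82 ± 0.45), Tacc3 (−1.02 ± 0.21) and Gtse1 (−0.66 ± 0.18) fell and Mapre3 (EB3, a relative of Mapre1) rose by 0.62 ± 0.19. The kinesins Kif18a (−0.69 ± 0.20) and Kif18b (−0.67 ± 0.19) fell, as did the kinases Aurkb (−1.10 ± 0.23) and Cdk1 (−0.94 ± 0.22), while Uhmk1 rose by 0.83 ± 0.19. The medians there were 0.12, −0.10, −0.22 and 0.03, beside −0.07 over all tested genes. Where anti-PD-L1 was added (25% of all) the stabilisers Map1b (0.52 ± 0.14) and Map6 (0.44 ± 0.14) and the plus-end proteins Clip4 (1.58 ± 0.32), Tacc2 (0.67 ± 0.18) and Gtse1 (0.50 ± 0.13) rose, Fignl1 fell by 0.42 ± 0.13, and 0 of 11 kinases passed. Where paclitaxel was added (3.56% of all) Kif18b (−0.81 ± 0.14), the depolymerase Kif2c (−0.71 ± 0.17) and Aurkb (−0.67 ± 0.16) fell, and 0 of 8 stabilisers and 0 of 16 plus-end proteins passed. In the CD45-positive fraction JQ1 (1.04% of all) gave 1 rise among 15 plus-end proteins (Slain1, which binds EB1, 1.39 ± 0.25). JQ1 with paclitaxel there (4.84% of all) gave a fall in 1 of 15 plus-end proteins (Tacc3, −1.41 ± 0.28), 1 of 7 depolymerases (Kif2c, −1.48 ± 0.32) and 1 of 10 kinases (Aurkb, −1.54 ± 0.30), and 0 of 5 stabilisers passed. Cdk1 and Aurkb are also in the proliferation list.

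Abcb1a in CD45-negative cells was lowest under JQ1 and highest under 3 drugs. Vehicle held 1.40 and 1.88 FPKM, JQ1 0.586 and 0.161, JQ1 with anti-PD-L1 0.939 and 1.14, JQ1 with paclitaxel 0.973, 0.293 and 1.30, and the 3-drug group 3.33, 4.38 and 3.34. All 3 libraries of the 3-drug group lay above the other 9, and the libraries of the other 3 treated groups all lay below vehicle. The fall under JQ1, to 0.228 of vehicle, was −0.95 ± 0.27 (adjusted p = 0.0346). The rise on adding anti-PD-L1 was 0.98 ± 0.18 (adjusted p = 0.00211), and that on adding paclitaxel 0.80 ± 0.18 (adjusted p = 0.029). Against vehicle the 3-drug mean was 2.25 times as high, a fold change of 0.83 ± 0.25 that did not pass (95% interval 0.29 to 1.36, adjusted p = 0.0993), and the interaction was 0.78 ± 0.35 (adjusted p = 0.688).

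The rise of Abcb1a with the antibody held in all 18 alternative settings that could test it (fold change 0.86 to 1.79, adjusted p 0.00112 to 0.0416). The JQ1 fall held in 10 of 18 and was lost without either vehicle library (adjusted p 0.0817 and 0.187 for replicates 1 and 2) or either JQ1 library (0.0707 and 0.159), and with relative depth as a covariate (fold change −0.56, adjusted p = 0.377). The JQ1 libraries had relative depths of 0.554 and 0.653, against 1.79 and 1.13 for vehicle, so their low values rest on fewer reads. The paclitaxel rise held in 8 of 18 and was lost without JQ1 replicate 1 (0.0665) or 2 (0.106), JQ1 with anti-PD-L1 replicate 1 (0.146) or 2 (0.0609), JQ1 with paclitaxel replicate 1 (0.0508) or 3 (0.0531) and 3-drug replicate 2 (0.0688). With a pseudocount of 0.1 FPKM the same fold changes were −2.03 for JQ1, 1.36 for paclitaxel and 1.79 for the antibody.

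Markers of other cells varied beside Abcb1a in these libraries. Endothelial cells are a known site of P-glycoprotein. Their 12 markers summed to 11.0, 16.3 and 35.9 FPKM in the 3-drug libraries, 12.1 to 40.8 under JQ1 with paclitaxel, 14.0 to 22.3 under JQ1 and 7.68 to 13.6 under vehicle, with none at 0, and 0 of 9 tested passed in either addition. T and NK cell markers summed to 5.41, 20.1 and 2.11 FPKM in the 3-drug libraries and 0.645 to 5.62 in the other 9; the 20.1 belonged to the library with 4.38 FPKM of Abcb1a. Epithelial and tumour markers summed to 1516 to 2199 FPKM under 3 drugs and 1594 to 2158 under vehicle, and to 1011 to 1557 in the other treated libraries. This list includes Vim and summed to 326.2 to 761.4 FPKM in the CD45-positive libraries, so its sum does not measure tumour cells alone. Where the antibody was added 3 of 8 tested rose (Trp63, Krt18 and Vim). Rises in that comparison also came to 3 of 12 pan-leukocyte, 4 of 13 macrophage and monocyte (Ly6c2, Fcgr1, Ccr2 and Cd68), 1 of 3 T and NK cell, 1 of 5 neutrophil, 2 of 10 fibroblast, 2 of 4 erythroid and 8 of 23 proliferation genes, and none of these fell. In JQ1 against vehicle, where Abcb1a fell, 3 of the 8 epithelial and tumour markers fell (Krt8, Krt18 and Trp63, list median −0.87), as did 2 of 5 neutrophil, 3 of 4 erythroid and 3 of 23 proliferation genes. Where paclitaxel was added 0 of the 8 epithelial and tumour markers passed, while 3 of 5 neutrophil, 2 of 4 erythroid and 9 of 23 proliferation genes fell. Their part in the Abcb1a values was not tested.

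In CD45-positive cells Abcb1a stayed under 2 FPKM. Vehicle held 0.561 and 1.03 FPKM, JQ1 1.79 and 0.422, JQ1 with anti-PD-L1 0.560 and 0.591, JQ1 with paclitaxel 0.561 and 0.541 and the 3-drug group 1.50 and 0.441. Its 2 highest libraries, the first of JQ1 and the first of the 3-drug group, also had high sums of T and NK cell markers (182.7 and 67.3 FPKM, beside 68.0 and 31.0 in the second library of each group and 15.8 to 32.9 elsewhere). The second JQ1 library went the other way, with 68.0 FPKM of these markers and the least Abcb1a of all 10 libraries (0.422 FPKM). P-glycoprotein is known in lymphocytes, and the part of these markers was not tested. None of its 7 comparisons passed, the widest against vehicle being −0.20 ± 0.36 for JQ1 with paclitaxel (95% interval −1.01 to 0.61).

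Abcb1b did not exceed 1.11 FPKM in CD45-negative cells and reached 4.68 FPKM in CD45-positive ones. The CD45-negative libraries held 0.157 and 0.237 FPKM under vehicle, 1.11 and 0.154 under JQ1, 0.527 and 0.0759 with anti-PD-L1, 0.171, 0.583 and 0.489 with paclitaxel and 0.873, 1.11 and 0.604 under 3 drugs. All 3 of the 3-drug libraries lay above vehicle, with a fold change of 0.63 ± 0.27 that did not pass (adjusted p = 0.216). Reads shared with Abcb1a, which was high in the same 3 libraries, could enter these values. The CD45-positive libraries held 2.21 and 4.45 FPKM under vehicle, 4.68 and 4.48 under JQ1, 3.09 and 2.93 with anti-PD-L1, 3.87 and 4.62 with paclitaxel and 4.39 and 4.62 under 3 drugs. The vehicle pair alone spanned nearly the whole range, and no comparison passed (JQ1 against vehicle 0.42 ± 0.27, adjusted p = 0.438).

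Abcc1, the MRP1 gene, was the exporter with the highest level. In CD45-negative cells the libraries with the antibody lay above those without it: 15.9 and 17.1 FPKM under JQ1 with anti-PD-L1 and 17.9, 22.0 and 20.3 under 3 drugs, against 14.0 and 12.5 under JQ1 and 12.6, 12.7 and 15.2 under JQ1 with paclitaxel. The 5 and 5 libraries did not overlap, and the rise was 0.42 ± 0.11 (adjusted p = 0.0183), in a comparison that called 25% of all tested genes. It held in 14 of 19 settings and was lost without JQ1 replicate 2 (0.0631) or JQ1 with anti-PD-L1 replicate 2 (0.074), with upper-quartile scaling (0.059), with relative depth as a covariate (0.057) and with 1 value for each mouse code (0.123), at fold changes of 0.34 to 0.46 over all settings. The same marker lists that held rises beside Abcb1a in this comparison apply to Abcc1, and their part was not tested. Vehicle, at 16.2 and 12.3 FPKM, had one library above and one below all those given JQ1 without the antibody, and the 3-drug group was 1.41 times as high (0.47 ± 0.16, adjusted p = 0.134). Adding paclitaxel gave 0.14 ± 0.11 (adjusted p = 0.507).

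In CD45-positive cells Abcc1 showed no such order. It held 6.67 and 8.12 FPKM under vehicle, 12.2 and 8.66 under JQ1, 9.13 and 9.30 with anti-PD-L1, 7.70 and 10.8 with paclitaxel and 9.21 and 5.51 under 3 drugs. Adding anti-PD-L1 gave −0.23 ± 0.20 (95% interval −0.69 to 0.23, adjusted p = 0.592), and the difference between the fractions was not tested.

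Abcg2, the BCRP gene, ran from 0.865 to 2.08 FPKM in CD45-negative cells, with 1.17 and 2.08 under vehicle, 1.37 and 1.88 under JQ1, 1.72 and 1.92 with anti-PD-L1, 1.59, 1.06 and 1.58 with paclitaxel and 0.865, 1.18 and 1.65 under 3 drugs. Every treated group overlapped vehicle. In CD45-positive cells JQ1 with anti-PD-L1 was the lowest group at 1.38 and 1.15 FPKM, below 2.46 and 1.98 under vehicle, 2.89 and 2.63 under JQ1, 2.25 and 2.84 with paclitaxel and 2.50 and 1.47 under 3 drugs. Its fold change against vehicle was −0.51 ± 0.25 (adjusted p = 0.736) and that of the antibody's addition −0.50 ± 0.17 (adjusted p = 0.18), neither of which passed.

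**Figure D5:**
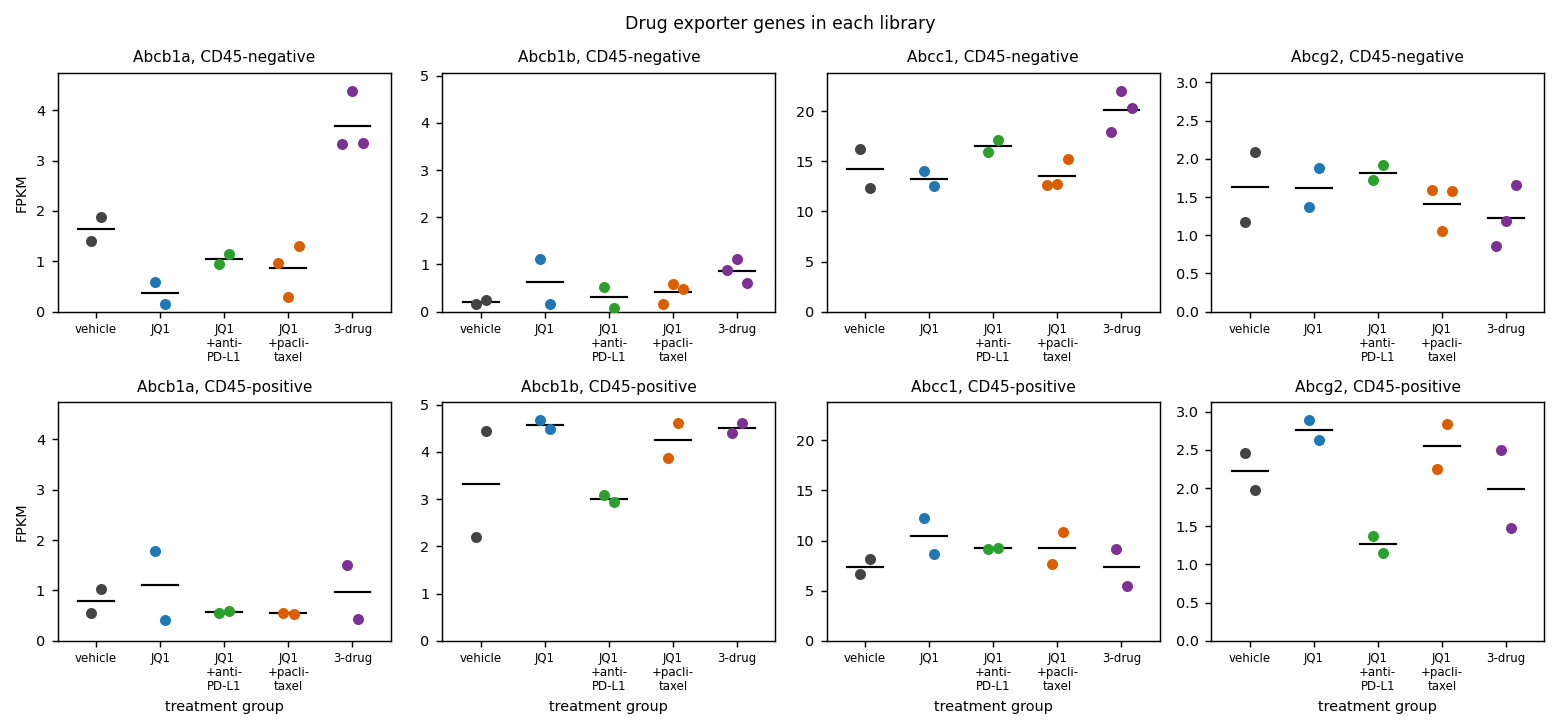
FPKM of the 4 exporter genes (y axis, 1 scale for each gene) in each library of the 5 treatment groups (x axis), CD45-negative above and CD45-positive below; points are libraries and lines group means. Abcb1a reaches 3.33 to 4.38 FPKM in the 3 CD45-negative 3-drug libraries, and Abcb1b lies at 2.21 to 4.68 FPKM in the CD45-positive libraries.

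Among 13 listed multidrug exporters 7 were tested in CD45-negative cells, with 16 of 24 other ABC transporters and 8 of 10 regulators of these exporters. Where anti-PD-L1 was added (25% of all tested genes) 2 exporters rose, Abcb1a and Abcc1, and 1 fell, Abcc10 (MRP7, whose known substrates include taxanes), by 0.78 ± 0.16 (adjusted p = 0.004); the list median was 0.06, beside 0.03 over all tested genes. Of the other transporters 1 rose and 3 fell there: Tap2, a subunit of the antigen peptide transporter, rose by 0.69 ± 0.10 (adjusted p = 0.000569), and Abca5 (−0.82 ± 0.13), Abcb9 (−0.71 ± 0.21) and the peroxisomal Abcd3 (−0.69 ± 0.13) fell. Of the regulators 1 rose, the tumour suppressor Trp53 (0.66 ± 0.13, adjusted p = 0.00348). In JQ1 against vehicle (14.8% of all) 3 of the 16 other transporters rose (Abcb9 1.40 ± 0.32, Abcd3 0.93 ± 0.21 and Abca5 0.81 ± 0.21) and 2 fell (Abcb6 −1.22 ± 0.26 and Tap2 −0.87 ± 0.15), and Trp53 fell by 0.89 ± 0.20 (adjusted p = 0.013). In JQ1 with paclitaxel (17.6% of all) Abcc10 rose (0.71 ± 0.22, adjusted p = 0.0457). Of the other transporters Abca5 rose (0.73 ± 0.19) there and Abcb6 (−1.07 ± 0.24), Tap2 (−0.64 ± 0.14) and its partner Tap1 (−0.55 ± 0.17) fell, and of the regulators Nfe2l2, which encodes NRF2, rose (0.89 ± 0.23) and Trp53 fell (−0.96 ± 0.18). Where paclitaxel was added (3.56% of all) 1 of the 16, Tap2, rose (0.39 ± 0.10) beside Abcb1a. In the CD45-positive fraction 1 of 9 tested exporters fell in JQ1 with paclitaxel (Abcb4, which moves phospholipid into bile, −1.38 ± 0.24, adjusted p = 0.0195; 4.84% of all), 1 of 7 regulators rose in JQ1 (the transcription factor Foxo1, 1.71 ± 0.27; 1.04% of all), and 0 of 17 other transporters passed in any comparison.

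Genes with the most similar profiles were taken as the 2 with the highest Pearson correlation of log2(FPKM + 1) over the libraries of a fraction, given as a description, since with 12 or 10 libraries and so many genes high values arise readily and libraries share depth and treatment. For CD45-negative Stmn1 they were Cdc20, an activator of the anaphase-promoting complex (r = 0.934), and Prps1, which makes the nucleotide precursor PRPP (r = 0.933), over 12 libraries and 7446 genes. For CD45-positive Stmn1 they were Nudcd2 and Dld (r = 0.964 for both, 10 libraries). CD45-negative Abcb1a ran with the collagenase Mmp13 and the chemokine Cx3cl1 (r = 0.971 for both), and CD45-negative Abcc1 with the hexokinase Hk2 (r = 0.905) and Tef (r = 0.902). Abcb1b had its best match in the CD45-negative fraction at r = 0.806 (Ipmk) and in the CD45-positive fraction at r = 0.95 (SMEK1). The numbers of libraries and genes differ, so best matches are not compared between fractions. The best matches of Abcg2 were at r = 0.827 (Serpina3n) in the CD45-negative and 0.854 (Rbm25) in the CD45-positive fraction. CD45-positive Abcb1a ran with Arhgap27 (r = 0.9455) and CD45-positive Abcc1 with Dennd4a (r = 0.951). Map4 ran with Tmx4 (r = 0.938) and Mapre1 with Uhrf1bp1l (r = 0.935) in the CD45-negative fraction, and with Nedd9 (r = 0.923) and Ppp2ca (r = 0.959) in the CD45-positive one.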

How the data were processed

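Bulk RNA of 12 CD45-negative and 10 CD45-positive libraries was used, with groups taken from the labels' cell type and treatment. Per the labels, libraries came from a low-input SMARTer kit. Per the submitters' processing notes, the aligner was STAR 2.5.1b and the genome mm9. What program computed the gene values is not given in the sources used here. Both deposited tables, 1 for each fraction, hold values by the authors that were taken as FPKM. The unit was inferred from decimals and column sums of 296682 to 370513, although the tables are labelled as counts, so no count test was run. Absolute depth is unknown, and precision comes from the spread between libraries. Relative depth was read from the steps of low values. The model was limma 3.58.1 (R 4.3.3) with its trend option, two-sided, on log2(FPKM + 1) of genes reaching 1 FPKM in 2 or more libraries, and was checked on simulated data. The residual degrees of freedom were 7 and 5 (12.8 and 8.94 after moderation). No test set one fraction against the other. Symbols were matched to GENCODE M21 transcripts and RefSeq promoters of a newer build; promoters of 5 of the 7 genes were matched. Plots were made in matplotlib 3.10.9 under Python 3.11.15 with pandas 2.3.3.

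The 7 genes, the lists and the tests were chosen with earlier results of these data known. Named genes were all 7 and up to 3 called genes of each microtubule or transporter list and comparison by size of fold change. The other called genes of lists with 4 or 5 were added after their values were seen. For each gene and fraction 1 or 2 of the most similar profiles were named, and so were some called marker genes. The lists held stathmins, stabilisers, plus-end proteins, depolymerases, stathmin kinases, multidrug exporters, other ABC transporters, their regulators, and markers of proliferation and of the cell types a fraction could hold. Alternatives were a pseudocount of 0.1 FPKM, no filter, a filter of 5 FPKM, upper-quartile scaling, relative depth as a covariate, 1 value for each mouse code, only the groups compared, and leaving out each library.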

Additional observations from a re-analysis of the deposited data

Results flagged for a closer look

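In 3 cases every treated library moved one way from the vehicle mean in CD45-negative cells and the other way in CD45-positive cells; the difference between the fractions was not tested, as their tables were made separately. For Stmn1 in the 3-drug group the mean difference from vehicle on the log2(FPKM + 1) scale was −0.41 (−0.84 to −0.06 over 3 libraries) in CD45-negative and 0.04 (0.0011 to 0.07 over 2) in CD45-positive cells, a gap of 0.45. For Abcc1 under JQ1 it was −0.09 (−0.16 to −0.01) and 0.43 (0.21 to 0.66), a gap of 0.52. For Abcg2 under JQ1 with anti-PD-L1 it was 0.12 (0.07 to 0.18) and −0.51 (−0.58 to −0.43), a gap of −0.63. In CD45-negative cells the treated libraries of all 3 cases overlapped the vehicle libraries. In CD45-positive cells those of Stmn1 did too (92.0 and 87.5 FPKM, beside 88.5 and 86.5 under vehicle). Without vehicle replicate 1 the CD45-negative difference turned to 0.10 for Abcc1 and −0.13 for Abcg2. None of these 6 differences passed the limma test in its own fraction.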

How the results depend on the processing

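Each result was recomputed under 7 alternatives and with each of the 12 CD45-negative or 10 CD45-positive libraries left out; where that left a group with 1 library, this library was assumed to vary like the others. Of the fold changes given for the 7 genes 2 changed sign, both small and not called. In CD45-negative cells Abcc1 under JQ1 (−0.09) became 0.0549 with upper-quartile scaling, 0.0852 with relative depth and 0.10 without vehicle replicate 1 (−0.27 to 0.10 over the left-out libraries), and Abcg2 under JQ1 with anti-PD-L1 (0.12) became −0.13 without vehicle replicate 1 (−0.13 to 0.38). In the CD45-negative fraction the calls among the 7 genes fell to 0 for JQ1 against vehicle (from 1) with no filter, the 5 FPKM filter (which removes Abcb1a), upper-quartile scaling, relative depth as a covariate or 1 value per mouse code, and ranged from 0 to 1 without 1 library. For JQ1 with paclitaxel they fell to 0 with 1 value per mouse code (0 to 1 without 1 library). On adding anti-PD-L1 they fell from 2 to 1 with the 5 FPKM filter, upper-quartile scaling, relative depth or 1 value per mouse code (1 to 3 without 1 library), and on adding paclitaxel from 1 to 0 with a pseudocount of 0.1 FPKM, no filter, the 5 FPKM filter or 1 value per mouse code (0 to 1). In the CD45-positive fraction they fell from 1 to 0 for JQ1 with relative depth, 1 value per mouse code or only the groups compared, for JQ1 with paclitaxel with relative depth or 1 value per mouse code, and on adding anti-PD-L1 under each alternative except the 5 FPKM filter (without 1 library 0 to 1 in the first 2 comparisons and 0 in the last). Counts of 0 stayed at 0.

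Over all tested genes the CD45-negative calls, with the lowest and highest count over the alternatives and left-out libraries, were 1592 for JQ1 (21 to 1743), 1893 for JQ1 with paclitaxel (274 to 1886), 27 for JQ1 with anti-PD-L1 (1 to 104), 176 for 3 drugs (5 to 322), 2691 on adding anti-PD-L1 (738 to 2907), 384 on adding paclitaxel (7 to 458) and 1 in the interaction (0 to 7). The CD45-positive ones were 108 (0 to 137), 500 (0 to 692), 3 (0 to 21), 14 (0 to 23), 86 (0 to 91), 4 (0 to 8) and 0 (0 to 10). Upper-quartile scaling moved the all-gene median from −0.05 to 0.08 for CD45-negative JQ1, from −0.07 to 0.07 for JQ1 with paclitaxel, and in the CD45-positive fraction from −0.09 to 0.06 for JQ1 with paclitaxel and from 0.16 to 0.04 for the interaction.

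No paired analysis was possible because the sample names share no replicate numbers between treatments (libraries were numbered in order of accession) and each mouse code occurs in 1 treatment only. The 2 fractions of a tumour were set side by side as ratios but not tested, since their tables were made separately. Groups of 2 or 3, 3 of them of 1 mouse code, and unknown read totals limit all tests, most for Abcb1a, Abcb1b and Abcg2 at 0.0759 to 4.68 FPKM.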
